A study of Mus musculus with 8 samples.

Results

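The genes described here are 10 genes known for their work in the mouse oocyte and in the embryo it gives rise to: *Zp1*, *Zp2*, *Zp3*, *Gdf9*, *Bmp15*, *Nlrp5*, *Nlrp14*, *Padi6*, *Ooep* and *Tle6*. They were taken from the array by name, through the RefSeq accession of each probe, and each of the 10 had 1 probe among the 19747 genes with a named probe. The samples were VV3 ESCs, a male mouse ESC line that carries a Vasa::Venus transgene, a fluorescent reporter of *Ddx4*, and that grows in serum and LIF on STO feeder cells. One group of 4 samples had received siRNA against *L3mbtl2* (*L3mbtl2*-KD) and the other group of 4 the AllStars control siRNA, with 1 one-colour Agilent array per sample. L3MBTL2 belongs to PCGF6-PRC1, a Polycomb complex that also holds MAX and MGA and that represses germ cell genes in ESCs, and the comparison asks which of those genes change when it is depleted. The methods describe the *L3mbtl2*-KD cells as reporter-positive cells sorted by FACS, and do not state whether the control cells were sorted.

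An oocyte builds stores that the early embryo lives on before its own genes start, and the genes that make those stores are called maternal-effect genes. ZP1, ZP2 and ZP3 are the glycoproteins of the zona pellucida, the coat around the oocyte that sperm must bind and cross. GDF9 and BMP15 are growth factors of the TGF-beta family that the oocyte secretes to the granulosa cells around it. NLRP5 (also called MATER), OOEP (FLOPED) and TLE6 form the core of the subcortical maternal complex, a protein assembly under the oocyte membrane without which mouse embryos stop dividing early, and PADI6 and NLRP14 are needed at the same stage.

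Of the 10 genes, 6 were well above background on all 8 arrays: *Zp3*, *Gdf9*, *Nlrp5*, *Ooep*, *Tle6* and *Padi6*. *Zp1*, *Bmp15* and *Nlrp14* were above background on 0 of the 8 arrays, and *Zp2* on 1. No gene of the 10 was called, where a call needs both a change past 2-fold and a limma p, adjusted over all probes tested, below 0.05: 0 were called up and 0 down, where 2.49% of the 13648 genes tested were called up and 3.21% down. At an unadjusted p under 0.05 in limma, *Zp3* was higher and *Padi6* lower, 2 of the 6 measured genes, where 18.2% of all genes tested were higher and 20.5% lower at that threshold. With the replicate number or the slide as a block, or with quantile normalization, 3 of the 6 passed it, *Ooep* being higher as well. The shares of all genes that were higher and lower there were 29.0% and 31.2% with the replicate block, 21.1% and 23.6% with the slide block, and 20.1% and 18.2% with quantile normalization. The one-way test named in the figure legends also called 0 of the 10 at 2-fold, and gave an unadjusted p under 0.05 to *Zp3* and *Padi6*, where 18.1% of all genes tested were higher and 19.4% lower. In limma these 2 genes passed an adjusted p under 0.05 at any fold, 1 higher and 1 lower (in the one-way test *Padi6* had an adjusted p of 0.082), beside 10.3% of all genes tested higher and 11.7% lower by limma. With the replicate number as a block these shares were 23.9% and 26.0%, and the count for the 10 genes was still 1 higher and 1 lower. *Zp3* and *Padi6* were also the 2 measured genes whose 4 *L3mbtl2*-KD samples did not overlap the 4 control samples, as was the case for 29.0% of the genes tested. These counts are near those shares, so they are not a result about the 10 genes as a set.

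**Figure D1:**
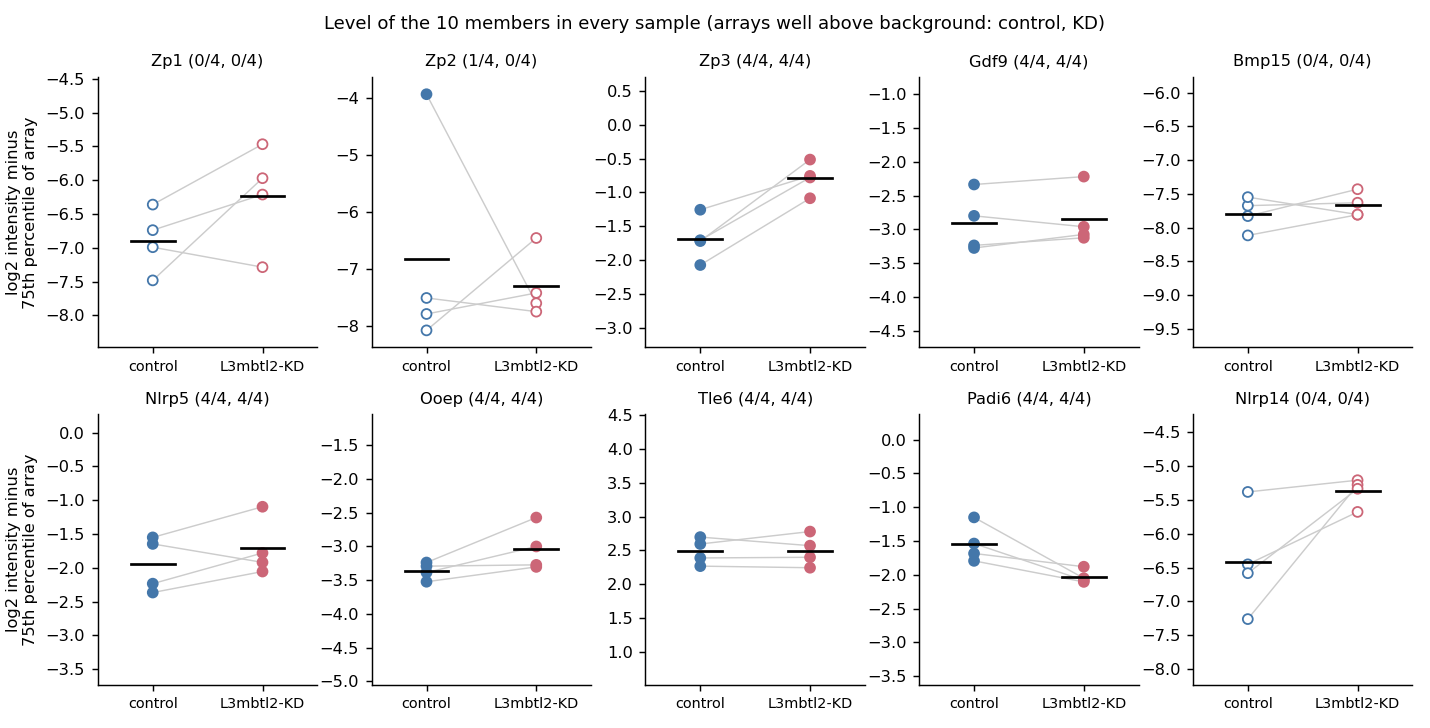
Each panel shows 1 of the 10 genes, with the level in each control sample (blue) and each L3mbtl2-KD sample (red) as log2 intensity minus the 75th percentile of its array, grey lines joining samples of the same replicate number and black bars marking group means. Filled points were well above background and open points were not; the 2 groups are apart for Zp3 and Padi6 and share their range for Gdf9, Nlrp5, Ooep and Tle6.

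The siRNA target was measured first. *L3mbtl2* stood at 0.27, -0.18, -0.21 and -0.31 in control samples 1 to 4 and at -1.45, -1.26, -1.58 and -1.73 in *L3mbtl2*-KD samples 1 to 4, on the scale of log2 intensity minus the 75th percentile of the array that is used for every level below. It fell by 1.40 on that scale (standard error 0.15, adjusted p = 0.00094 in limma), in all 4 samples. *Ddx4*, the gene behind the reporter by which the *L3mbtl2*-KD cells were sorted, rose by 2.83 (standard error 0.087, adjusted p = 4.9e-06 in limma). The sort picks cells with that reporter on, so this rise is no test of the siRNA. The ESC markers *Pou5f1*, *Sox2*, *Esrrb* and *Tdgf1* were above background on every array. Of the 8 genes on the granulosa cell list, *Foxl2*, *Inha*, *Inhbb*, *Nr5a2* and *Fst* were above background on all 8 arrays, *Fshr* on 1, and *Amh* and *Cyp19a1* on 0.

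*Zp3*, whose product is the zona protein to which sperm first bind in the classical model, had the highest log2 fold change of the measured genes. Its level was -1.26, -2.07, -1.71 and -1.72 in control samples 1 to 4 and -0.76, -1.09, -0.78 and -0.51 in *L3mbtl2*-KD samples 1 to 4. Every *L3mbtl2*-KD sample lay above every control sample, and control sample 2 and *L3mbtl2*-KD sample 2, which share a number, were each the lowest of their group. The mean was -1.69 ± 0.34 (SD, n = 4) in control and -0.78 ± 0.23 (SD, n = 4) in *L3mbtl2*-KD ESCs. The log2 fold change of *Zp3* came to 0.91 with a standard error of 0.18 (adjusted p = 0.012 in limma, exact permutation p = 0.0286, the smallest that 4 against 4 samples allow). This is 1.87-fold, with a 95% confidence interval from 1.40- to 2.51-fold that takes in the 2-fold threshold. Between samples of the same number the difference was 0.50, 0.99, 0.93 and 1.21, so it was above 2-fold in 1 pair. *Zp3* was called up when *L3mbtl2*-KD sample 2 was left out (log2 fold change 1.01, adjusted p = 0.013) or control sample 1 was left out (1.05, adjusted p = 0.0057), and by a threshold of 1.5-fold. The arrays came from 2 slides, with replicates 1 and 2 on slide 1 and replicates 3 and 4 on slide 2, and the *Zp3* log2 fold change was 0.74 within slide 1 (adjusted p = 0.40) and 1.07 within slide 2 (adjusted p = 0.021), with an adjusted p of 0.014 when slide was a block.

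In the oocyte the zona genes are switched on by FIGLA, a basic helix-loop-helix factor that binds an E-box upstream of their start sites, and MAX with its partners also binds E-boxes, of the form CACGTG. The promoter of *Zp3* is shown for that reason, beside those of *Padi6* and *Tle6* described further on. The 3 windows are from RefSeq (GRCm38.p6), each 300 bases long, with 250 bases before the start site, and written 5′ to 3′ on the strand of the gene. Capitals mark CACGTG in *Zp3* (chr5:135979855-135980154, plus strand) and *Tle6* (chr10:81600851-81601150, minus strand), and in *Padi6* (chr4:140742594-140742893, minus strand) the motif TAATTG of the oocyte homeobox factor NOBOX, which lies there on the other strand as CAATTA.
Zp3: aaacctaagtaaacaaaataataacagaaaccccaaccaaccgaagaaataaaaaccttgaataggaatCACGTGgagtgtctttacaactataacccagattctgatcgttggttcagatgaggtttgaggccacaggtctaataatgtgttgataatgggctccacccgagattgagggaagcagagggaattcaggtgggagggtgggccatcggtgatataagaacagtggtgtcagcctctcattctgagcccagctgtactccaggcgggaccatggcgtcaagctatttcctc
Padi6: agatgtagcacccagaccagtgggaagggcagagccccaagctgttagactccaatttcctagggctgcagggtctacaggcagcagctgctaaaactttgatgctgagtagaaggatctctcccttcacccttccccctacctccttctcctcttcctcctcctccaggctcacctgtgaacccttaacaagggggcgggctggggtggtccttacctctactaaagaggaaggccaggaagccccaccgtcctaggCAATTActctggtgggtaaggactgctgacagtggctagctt
Tle6: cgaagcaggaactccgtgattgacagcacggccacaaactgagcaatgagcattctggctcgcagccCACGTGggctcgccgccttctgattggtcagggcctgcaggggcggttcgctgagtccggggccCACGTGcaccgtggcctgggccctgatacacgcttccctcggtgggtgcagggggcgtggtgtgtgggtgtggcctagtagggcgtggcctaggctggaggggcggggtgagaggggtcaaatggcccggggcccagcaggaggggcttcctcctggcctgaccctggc

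*Zp3* held CACGTG at -181, counted with the start base as 1 and the base before it as -1, and the first of the 2 promoters listed for *Tle6* held it at -183 and -119, while the second did not hold it. Searched on both strands, CACGTG was present in 2 of the 6 genes of the 10 that had a promoter in the table, and in 7.24% of the promoters of 27025 genes, with the first promoter listed for each gene counted. The wider E-box CANNTG, of which CACGTG is 1 form, occurred in 72.1% of promoters and 4 times in that of *Zp3*. TAATTG lay at 9 in *Padi6* and at -195 in *Ooep*, and in 8.15% of promoters, and the E2F motif GCGGGAA lay at -174 in the second of the 2 promoters of *Nlrp5*, and in 4.66% of promoters. Binding at these promoters was not measured on these arrays.

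The other zona genes were not measured reliably. *Zp1*, whose product cross-links the zona filaments, was between -7.48 and -6.36 in control and between -7.29 and -5.47 in *L3mbtl2*-KD samples, and no array placed it well above background, so it has no fold change. *Zp2*, the zona protein that sperm bind and that is cleaved after fertilisation, was at -8.07, -3.93, -7.51 and -7.79 in control samples 1 to 4 and between -7.75 and -6.45 in the *L3mbtl2*-KD samples. Only control sample 2 placed it above background, 1 of 4 control arrays against 0 of 4 *L3mbtl2*-KD arrays. Control sample 2 was also the array with the most probes above background on that array and on no other, 772 of 39429 probes, against 128 to 641 on each of the other arrays. Of their 781 spots, 66.3% lay in the first 160 of the 532 rows of the array, where 29.8% of all spots lie and where the *Zp2* spot lies too, in row 137; on the other arrays the share of such spots in these rows, whose number was chosen after the values were seen, was 9.56% to 47.4%. Their part in the *Zp2* signal was not tested, and no fold is given.

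Of the secreted factors, *Gdf9* was measured and *Bmp15* was not. *Gdf9*, which drives follicle growth past the primary stage, was at -3.27, -2.34, -2.80 and -3.24 in control samples 1 to 4 and at -3.07, -2.22, -2.96 and -3.12 in *L3mbtl2*-KD samples 1 to 4. The groups covered the same range, and the highest sample of each group was number 2. Its log2 fold change of 0.067 had a 95% confidence interval from -0.54 to 0.67 (standard error 0.26, adjusted p = 0.89 in limma, exact permutation p = 0.80). Pairs of the same number differed by no more than 0.20 in either direction, less than the 0.44 (SD, n = 4) among control samples. The X-linked gene *Bmp15*, which acts with GDF9 on granulosa cells, was between -8.11 and -7.43 over all 8 samples and above background on none of them.

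The genes of the subcortical maternal complex were better covered, with *Nlrp5*, *Ooep* and *Tle6* measured in every sample. *Nlrp5*, which encodes the scaffold of the complex, was at -1.55, -1.65, -2.37 and -2.24 in control samples 1 to 4 and at -1.10, -1.92, -2.06 and -1.78 in *L3mbtl2*-KD samples 1 to 4. *L3mbtl2*-KD sample 1 was the highest of the 8, the other samples of that group lay within the control range, and the groups overlapped. The 95% confidence interval of the *Nlrp5* log2 fold change (0.24, standard error 0.26, adjusted p = 0.57 in limma) ran from -0.35 to 0.82, which spans 0 and ends below 2-fold. Single arrays moved it, to 0.031 without *L3mbtl2*-KD sample 1 and to 0.37 without control sample 1, and it was 0.090 within slide 1 and 0.38 within slide 2.

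*Ooep*, which encodes a KH-domain protein of the same complex, was at -3.39, -3.24, -3.29 and -3.52 in control samples 1 to 4 and at -3.00, -2.57, -3.27 and -3.30 in *L3mbtl2*-KD samples 1 to 4. *L3mbtl2*-KD samples 1 and 2 lay above all control samples, and samples 3 and 4 lay among them. Between samples of the same number the difference was 0.39, 0.67, 0.019 and 0.22. *Ooep* had a log2 fold change of 0.32, which was 0.53 within slide 1 and 0.12 within slide 2 (standard error 0.16, adjusted p = 0.21 in limma, exact permutation p = 0.14). The adjusted p was 0.076 with the replicate number as a block, 0.12 with the slide as a block and 0.078 with quantile normalization. Without *L3mbtl2*-KD sample 2 the log2 fold change was 0.17, and without any other 1 sample it was between 0.27 and 0.41.

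*Tle6*, the member of the Groucho family of co-repressors that binds into the complex, was at 2.70, 2.60, 2.39 and 2.27 in control samples 1 to 4 and at 2.57, 2.78, 2.40 and 2.24 in *L3mbtl2*-KD samples 1 to 4. The groups overlapped, and samples with the same number lay at most 0.18 apart. For this log2 fold change of 0.011 the 95% confidence interval ran from -0.31 to 0.34 (standard error 0.14, adjusted p = 0.97 in limma), second in narrowness among the measured genes. Its sign turned with quantile normalization (-0.036) and with normexp background correction (-0.015).

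*Padi6* encodes a member of the peptidylarginine deiminase family that the oocyte cytoplasmic lattices depend on, and was the 1 measured gene with a negative log2 fold change. It was at -1.15, -1.68, -1.79 and -1.54 in control samples 1 to 4 and at -2.05, -1.88, -2.10 and -2.08 in *L3mbtl2*-KD samples 1 to 4. All *L3mbtl2*-KD samples lay below all control samples, the nearest being 0.086 apart, and control sample 1 was the highest of the 8. The mean was -1.54 ± 0.28 (SD, n = 4) in control and -2.03 ± 0.10 (SD, n = 4) in *L3mbtl2*-KD ESCs. The log2 fold change of *Padi6* came to -0.49 with a standard error of 0.14 (adjusted p = 0.045 in limma, exact permutation p = 0.0286). That is 1.40-fold lower, with a 95% confidence interval from 1.12- to 1.76-fold. The adjusted p was 0.083 with quantile normalization and 0.11 with normexp background correction, and it rose above 0.05 when any 1 of 6 samples was left out, up to 0.11 without *L3mbtl2*-KD sample 3. Within slides the log2 fold change was -0.55 on slide 1 and -0.43 on slide 2, with an adjusted p of 0.032 when slide was a block. *Nlrp14*, an NLRP gene needed for development after fertilisation, was between -7.26 and -5.38 in control and between -5.68 and -5.21 in *L3mbtl2*-KD samples, with 0 of 8 arrays above background, and has no fold change.

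**Figure D2:**
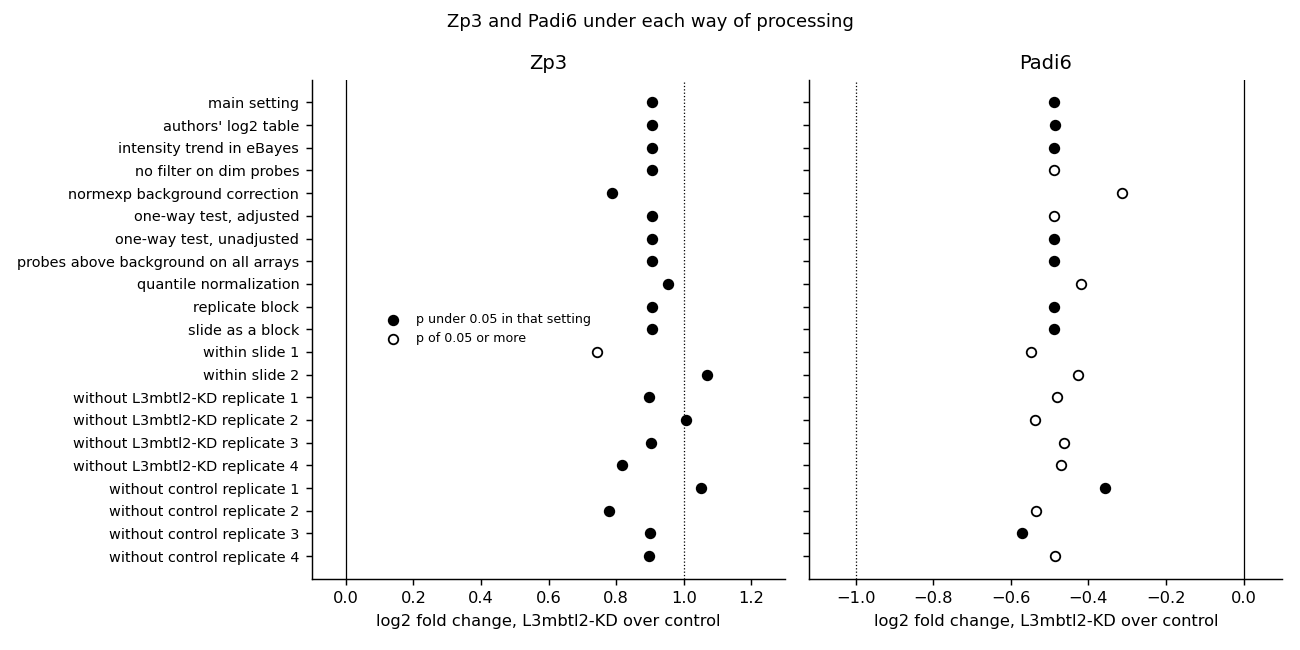
Log2 fold change (L3mbtl2-KD over control) of Zp3 and Padi6 in the main setting and in each alternative way of processing the arrays, 1 row per setting, with filled points where the p of that setting was under 0.05 and open points elsewhere; dotted lines mark 2-fold. Zp3 runs from 0.74 to 1.07 and crosses the 2-fold line in 3 settings, and Padi6 runs from -0.57 to -0.31 and is filled in fewer than it is open.

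Across the 8 arrays the 6 measured genes did not move as 1 group. Pearson's r over the 8 samples, given for the 15 pairs as a description since all share the same arrays and groups, ran from -0.57 between *Zp3* and *Padi6*, which differ between the groups in opposite directions, to 0.69 between *Gdf9* and *Ooep*, both at their highest in a sample numbered 2. *Ooep* and *Tle6*, whose proteins bind each other, had an r of 0.66, and *Nlrp5* with *Ooep* 0.27.

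Further oocyte genes set the 10 in context. Beside the counts called in each list below, 2.49% of all genes tested were called up and 3.21% down. Of 12 genes for the remaining parts of the subcortical maternal complex and for reproductive NLRP proteins, 6 were tested, 2 were called up and 0 down (2 up and 1 down with the replicate block, *Nlrp4a*, above background on 2 of 4 *L3mbtl2*-KD arrays), with a median log2 fold change of 0.51 beside -0.011 over all genes tested. These were *Khdc3*, which encodes FILIA, a partner of NLRP5 and OOEP in the complex, and *Nlrp4c*. *Khdc3* was at 1.70, 1.63, 1.63 and 1.23 in control samples 1 to 4, and the *L3mbtl2*-KD sample of the same number was higher by 1.29, 1.98, 1.67 and 1.88. It rose by 1.71 (standard error 0.16, adjusted p = 0.00049 in limma). *Nlrp4c* rose by 1.93 (standard error 0.17, adjusted p = 0.00042 in limma) on 1 probe. Its other probe was above background on 2 of 4 control and 4 of 4 *L3mbtl2*-KD arrays. That probe was also called up, but it entered the test only through the *L3mbtl2*-KD group and is given no fold. The log2 fold change of *Khdc3* was larger by 1.38 than that of *Ooep*, by 1.47 than that of *Nlrp5*, by 1.69 than that of *Tle6* and by 2.19 than that of *Padi6*, a comparison that was chosen after the values were seen and is given with no test.

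**Figure D3:**
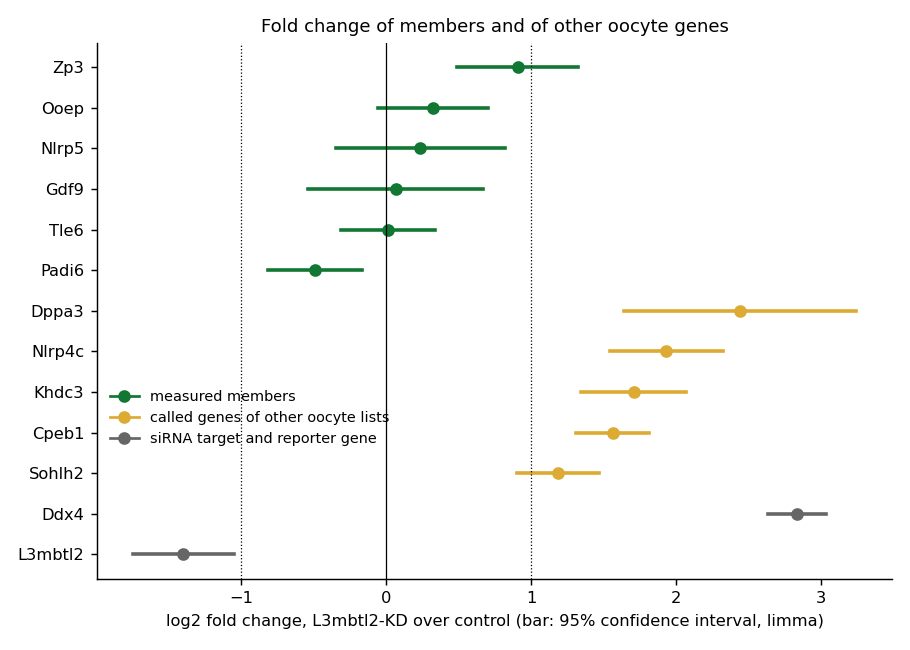
Log2 fold change (L3mbtl2-KD over control, n = 4 each) with its 95% confidence interval from limma for the 6 measured genes of the 10 (green), the called genes of the other oocyte lists (yellow), and the siRNA target L3mbtl2 and the reporter gene Ddx4 (grey), with dotted lines at 2-fold. Zp3 (0.91) is the green point nearest to 2-fold, and the yellow points run from 1.18 for Sohlh2 to 2.44 for Dppa3.

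Of 13 oocyte transcription regulators 5 were tested, and *Sohlh2*, a factor of the primordial oocyte, was called up (log2 fold change 1.18, standard error 0.12, adjusted p = 0.00082; 0.96 within slide 1), with 0 called down and a median of -0.26. The lowest log2 fold change of this list was that of *Obox6* (-0.70, adjusted p = 0.095 in limma). *Figla*, the regulator of *Zp3* in oocytes, was above background on 0 of 4 control and 2 of 4 *L3mbtl2*-KD arrays and is given no fold. Of the other genes of this list that were not tested, *Obox3* was above background on 0 of 4 control and 3 of 4 *L3mbtl2*-KD arrays by its brighter probes. *Taf4b* was above background on 0 and 2, and *Lhx8* on 1 and 0. *Nobox* was above background on 0 arrays. Of 26 other oocyte and maternal-effect genes 11 were tested, with 2 called up and 0 down and a median of 0.17. Those called up were *Dppa3* (Stella, which protects the maternal genome from demethylation; 2.44, standard error 0.35, adjusted p = 0.0030) and *Cpeb1* (a regulator of stored maternal mRNA; 1.56, standard error 0.11, adjusted p = 0.00016). *Pabpc1l* was the 1 gene of this list lower at an adjusted p under 0.05 in limma, short of 2-fold (-0.81, adjusted p = 0.0054). Among 12 paralogues of *Tle6*, *Padi6* and *Ooep*, 10 were tested and 0 were called by limma or the one-way test, with a median of -0.12. At an unadjusted p under 0.05 in limma 0 were higher and 2 lower (1 and 5 with the replicate block). Of all genes tested 18.2% were higher and 20.5% lower at that threshold (29.0% and 31.2% with the replicate block). These shares also stand beside the counts of the lists that follow. The log2 fold change was 0.027 for *Tle5*, a paralogue of *Tle6*, and 0.17 for *Dppa5a*, a paralogue of *Ooep*, with an adjusted p of 0.30 for *Dppa5a* that was 0.032 with the replicate block. At an adjusted p under 0.05 in limma 1 paralogue was lower, *Tle3* (-0.45, adjusted p = 0.038), beside 11.7% of all genes tested. The log2 fold change was -0.19 for *Padi1*, -0.80 for *Padi2*, -0.23 for *Padi3* and -0.41 for *Padi4*, with a second *Padi4* probe at -0.034. The highest of the list was 0.18. Of 12 receptors and SMADs that carry the GDF9 and BMP15 signals 9 were tested and 0 called by either test, with 0 higher and 3 lower at an unadjusted p under 0.05 in limma (2 and 3 with the replicate block) and a median of -0.10, and BMPR1B, the receptor that BMP15 prefers, had a gene above background on 0 arrays. *Smad5* was the 1 gene lower at an adjusted p under 0.05 in limma (-0.25, adjusted p = 0.044), which it lost in 11 of 20 alternatives. The log2 fold change of *Smad4* was 0.14 (adjusted p = 0.20 in limma, 0.046 with the replicate block). All 12 maternal-effect genes with broad expression were tested, and 0 were called by either test, with 2 higher and 3 lower at an unadjusted p under 0.05 in limma (3 and 4 with the replicate block) and a median of -0.071. At an adjusted p under 0.05 in limma 2 were lower, among them *Smarca4* (-0.31, adjusted p = 0.039), which lost it in 10 of 20 alternatives. *Trim28* had a log2 fold change of 0.27 (adjusted p = 0.10 in limma).

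Markers of other cells moved with the groups, and in bulk RNA a smaller number of cells and less RNA per cell cannot be told apart. Of 10 feeder fibroblast markers 8 were tested and 6 called down, where 3.21% of all genes tested were called down. Of these 6, *Col3a1* and *Dcn* were above background on 4 of 4 control and 0 of 4 *L3mbtl2*-KD arrays. They entered the test only through the control group, while *Acta2*, *Col1a1*, *Col1a2* and *Pdgfrb* were above background on every array. *Thy1* (-0.86, adjusted p = 0.010 in limma) and *Fbn1* (0.16, adjusted p = 0.74) were tested and not called. *Lum* and *Postn* were not above background on any array. *Col1a2* had the highest mean level in control (0.25) and *Thy1* in *L3mbtl2*-KD samples (-2.04). The summed intensity of the list, in multiples of the 75th percentile of the array, was 2.25, 5.06, 4.20 and 6.07 in control samples 1 to 4. It was 0.859, 1.04, 0.923 and 0.805 in *L3mbtl2*-KD samples 1 to 4. The *L3mbtl2*-KD group was lower both in this sum and in *Padi6*, which says nothing of the order of samples within a group. The methods describe sorting for the reporter for the *L3mbtl2*-KD cells and do not state it for the controls. Sorting and the siRNA therefore cannot be told apart in the feeder markers or in any other gene given here, *Zp3* and *Padi6* included. Of 12 markers of two-cell-like cells, which switch on genes of the early embryo, 9 had a probe, and 8 were called up by limma and 5 by the one-way test. By limma 2.49% of all genes tested were called up. *Zfp352* was not called (-0.15, adjusted p = 0.39 in limma) and was above background on every array. A second *Usp17la* probe was at 0.28 (adjusted p = 0.33 in limma). Of the 8 called up, *Tdpoz4* was above background on 1 of 4 control and 4 of 4 *L3mbtl2*-KD arrays. It entered the test only through the *L3mbtl2*-KD group, and its values overlapped between the groups. The sum of the list, led in both group means by *Zscan4f*, was 25.5, 30.1, 16.9 and 18.0 in control samples 1 to 4. It was 93.4, 91.5, 50.8 and 51.5 in *L3mbtl2*-KD samples 1 to 4. The *L3mbtl2*-KD group was higher both in this sum and in *Zp3*, and a link between them was not tested. Of 7 primitive endoderm markers 4 were called down, with sums of 1.64 to 2.20 in control and 1.09 to 1.91 in *L3mbtl2*-KD samples, led by *Gata6*, whose own log2 fold change was 0.064. Of the called genes, *Foxa2* was above background on 0, *Dab2* on 1 and *Sox17* on 3 of 4 *L3mbtl2*-KD arrays. These entered the test only through the control group. With normexp background correction *Foxa2* (-0.41, adjusted p = 0.076 in limma), *Dab2* (-0.95) and *Pdgfra* (-0.80) were below 2-fold, and *Sox17* was at -1.10. Of 8 granulosa cell genes 5 were tested and 1 was called down, *Fst*, and their sum overlapped between the groups, from 17.4 upward in control and from 16.5 to 19.6 in *L3mbtl2*-KD samples, led by *Foxl2*, whose own log2 fold change was 0.027. Of the 4 late primordial germ cell genes that the study follows 3 were called up, among them the reporter gene *Ddx4*, and *Sycp3* was not (-0.11, adjusted p = 0.63 in limma). Of 9 ESC markers 0 were called by limma or the one-way test, with sums of 153 to 175 and 147 to 155. At an unadjusted p under 0.05 in limma 1 was higher and 3 lower (1 and 5 with the replicate block). Of all genes tested 18.2% were higher and 20.5% lower at that threshold (29.0% and 31.2% with the replicate block). Among the ESC markers the log2 fold change was -1.32 for *Nanog* (adjusted p = 0.096 in limma) and -0.70 for *Klf4* (adjusted p = 0.027). For *Dppa4* it was 0.31 on the brightest probe (adjusted p = 0.030 in limma), and 0.33 (adjusted p = 0.025) and 0.084 (adjusted p = 0.51) on its other probes. The part of any of these cells in the *Zp3* and *Padi6* differences was not tested.

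**Figure D4:**
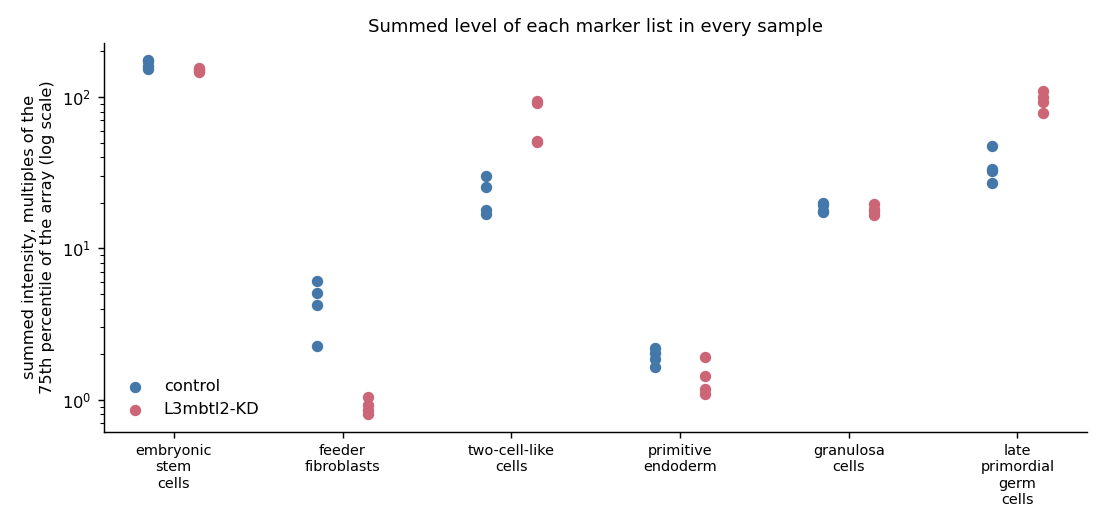
Summed intensity of each list of cell type markers in every sample, in multiples of the 75th percentile of the array and on a log axis, for control (blue) and L3mbtl2-KD samples (red). Feeder fibroblast sums are lower and two-cell-like and late primordial germ cell sums higher in all 4 L3mbtl2-KD samples, whereas granulosa cell sums overlap between the groups. The late primordial germ cell list includes Ddx4, the gene of the reporter used for sorting.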

How the data were processed

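For each of 8 arrays the authors deposited spot intensity after background subtraction (per the file headers, Agilent Feature Extraction 10.7.3.1), from 100 ng of RNA, and a table of log2 values, shifted and centred by probe (array medians -0.059 to 0.080). Log2 intensity minus the 75th percentile of the array was used; control and outlier-flagged spots were left out and spots of a probe averaged. Of 39429 probes, 26049 were named through RefSeq (GRCm38.p6). A probe was tested if all arrays of 1 group or both had it above background, which 23524 did. The test was limma 3.58.1 (lmFit, eBayes; R 4.3.3), and p-values were adjusted by Benjamini-Hochberg across these probes. A gene needed 1 called probe. Between 59.5% and 66.6% of spots per array were above background, and the number of arrays limits precision.

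After subtraction of group means, samples that share a replicate number correlated at 0.38 to 0.58 and the others at -0.44 to 0.25, so, by the values, the numbers pair the samples.

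The members and lists were chosen with earlier results of these data known. Named genes were the 10, *L3mbtl2*, *Ddx4*, per list up to 4 called genes in each direction or else the 2 brightest, and the 3 most like the brightest member, which are not reported here. *Figla*, *Nobox*, *Amh*, *Cyp19a1* and others outside this rule were named after their values were seen. Exact permutation tests were two-sided and reassigned the samples freely, so they did not keep the pairs of the same number. Alternatives were normexp (offset 50, on median spot signal), quantile normalization, the deposited log2 table, other filters on dim probes, slide or replicate blocks, an intensity trend, the one-way test, 1.5-fold, 1 probe per gene, single slides and leaving out each sample.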

Additional observations from a re-analysis of the deposited data

Results flagged for a closer look

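Among 79 groups of 4 samples, 5 held a sample that stood far from the other 3 (its gap to the nearest, as a share of the range of the group, above the 95% critical value of Dixon's rule), where chance gives about 1 in 20, or 3.95 groups. These groups did not cover every gene of the lists. *Fshr*, at -4.57 in control sample 2 against -7.88 to -7.35, is not among the 5. Nor is the paralogue *Khdc1a*, at -2.65 in that sample against -7.73 to -7.20. *Zp2* in control samples stood out through sample 2, at -3.93 against -8.07 to -7.51 (share 0.863). *Khdc3* stood out through control sample 4, at 1.23 against 1.63 to 1.70 (0.845), and *Sohlh2* through the same sample, at 0.36 against 0.52 to 0.55 (0.835). *Sox17* stood out through control sample 3, at -2.74 against -2.52 to -2.49 (0.865), and *Dab2* through *L3mbtl2*-KD sample 1, at -4.41 against -5.58 to -5.47 (0.903). For *Zp2* and *Dab2* the other 3 values were not above background, so these 2 shares are measured from background signal. The causes were not tested.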

How the results depend on the processing

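*Zp3* kept its direction under every alternative run, and *Zp3* and *L3mbtl2* lost an adjusted p under 0.05 only within slide 1 (*Zp3* 0.74; *L3mbtl2* -1.40). The count of the 10 genes called up was 1 within slide 2, 1 at 1.5-fold and 0 to 1 with a sample left out, each time *Zp3*. *Padi6* lost an adjusted p under 0.05 in 12 of 20 alternatives: -0.49 without a filter on dim probes and in the adjusted one-way test, -0.31 with normexp, -0.42 with quantile normalization, -0.55 and -0.43 within slides 1 and 2, and -0.54 to -0.46 without 1 of 6 samples; it kept it without control sample 1 or 3, the ends of the whole range with a sample left out, -0.57 to -0.36. *Tle6* changed sign with normexp (-0.015), quantile normalization (-0.036), within slide 2 (-0.0069) and with a sample left out (-0.083 to 0.096), as did *Gdf9* within slide 2 (-0.025) and with a sample left out (-0.14 to 0.26); the causes were not tested.

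Genes called up and down, 340 and 438, were 194 and 159 with normexp (55.0% higher in place of 43.7%), 250 and 290 with probes above background on all arrays, where fewer probes are tested, 700 and 1014 at 1.5-fold, and 0 and 0 in limma within slide 1, where 319 and 373 passed 2-fold at an unadjusted p under 0.05 with 2 samples a group. With the replicate block they were 358 and 469, *Zp3* had an adjusted p of 0.0057 and *Padi6* of 0.035, and the block changed no call among the 10 genes. Signals near background, as for *Zp1*, *Zp2*, *Bmp15* and *Nlrp14*, allow no fold.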

Other observations

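The genes on either side of the 10, the nearest with a tested probe in the order of the RefSeq table, are given here by the probe with the highest mean signal. Of these 20 genes, 3 were higher and 1 lower at an adjusted p under 0.05 in limma, near the 10.3% and 11.7% of all genes tested: *Olfr713* beside *Nlrp14*, *Ccdc86* beside *Zp1* (log2 fold change 0.57, adjusted p = 0.026), and *Nudt10* (0.58, adjusted p = 0.043) and *Clcn5* (-0.49, adjusted p = 0.032) beside *Bmp15*. *Zp1*, *Bmp15* and *Nlrp14* themselves were not above background. The neighbours of *Zp3* were *Ssc4d* (0.46, adjusted p = 0.12) and *Dtx2* (0.17, adjusted p = 0.23). Beside *Padi6*, which sits at 1 end of the *Padi* cluster, they were *Padi4*, also among the paralogues counted above (-0.41, adjusted p = 0.11; second probe -0.034, adjusted p = 0.95), and *Rcc2* (-0.16, adjusted p = 0.22). *Nlrp14* lay next to the olfactory receptor gene *Olfr713*, which was called up (2.34, standard error 0.33, adjusted p = 0.0029), and *Rbmxl2* (0.15, adjusted p = 0.26).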
